A study of Mus musculus with 4 samples.

Results

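Lcn2, Mt2, Cp and Saa3 are 4 mouse genes whose products bind iron, zinc or copper or belong to the acute phase, the set of proteins that rises in inflammation. They were followed in cardiac endothelium, the cells that line the vessels of the heart, after injection of lipopolysaccharide (LPS), a surface molecule of Gram-negative bacteria that triggers inflammation. The members are all oligonucleotides whose gene symbol on the array platform is exactly one of these 4 names. They were 5 oligonucleotides in 10 spots, and the 4 genes were set among 11138 measured genes. The 4 genes were chosen by their measured LPS over saline ratios on these same arrays, so their high ratios are a description, and no test was made on them.

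The study compared endothelial RNA of mice given LPS into the peritoneum with that of mice given saline in the same way, at 4 h and at 24 h. Each time had 2 arrays with 2 colours, on which amplified RNA of LPS mice carried Cy5 and that of saline mice Cy3, or the dyes were reversed. The labels named no separate animals for the reversed array, so the 2 arrays of a time were counted as 1 replicate, and ± gives the SD of these arrays (n = 2 arrays). This SD holds the error of arrays and dyes and leaves out the spread between animals. Strain, sex, age, LPS dose, the number of mice, pooling and the way the endothelium was isolated are details not given in the sources used here.

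All values are log2 ratios of LPS over saline, with 0 for no difference and 1 for 2-fold. The deposited table did not state its direction. The values were taken to be Cy5 over Cy3, and arrays whose LPS RNA carried Cy3 had their sign turned, so LPS over saline is the likely direction and not a stated one. If the table had already been turned alike, the members' values would be opposite on the 2 arrays of a time. The table held no intensities, so the level of an mRNA in either condition is unknown, and the tissue could not be checked by the level of its marker genes. In RNA of a whole isolate, more cells of a type and more RNA per cell cannot be told apart.

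Several of these proteins withhold or handle metals during infection. Lcn2 (lipocalin 2) binds siderophores, the small iron carriers that bacteria release, and so keeps iron from them. Metallothioneins such as Mt2 are small cysteine-rich proteins that bind zinc and copper and are induced by metals, glucocorticoids and inflammatory signals. Ceruloplasmin (Cp) carries copper in plasma and oxidises iron, and serum amyloid A proteins such as Saa3 are acute-phase apolipoproteins, of which Saa3 is made in many tissues outside the liver in mice.

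Because the 4 genes were all called higher after LPS at 24 h, as described further on, their promoters are shown for comparison. The RefSeq windows of build GRCm38.p6 run from 250 bases before to 50 bases after an annotated start. All 4 genes had one, with 2 windows for Cp, of which the one further downstream is printed. The printed Cp and Saa3 windows lie wholly inside their annotated genes, chr3:19956933-20009750 and chr7:46711998-46719615. Their starts are thus not the outermost annotated ones. Capitals mark matches, on either strand, to the core of the metal response element bound by the zinc sensor MTF1, searched as TGCACNC and as TGCGCNC, and to TTNNGNAA, a sequence of the type bound by C/EBP proteins. No 2 marked matches overlapped.
Lcn2, chr2:32387690-32387989, minus strand: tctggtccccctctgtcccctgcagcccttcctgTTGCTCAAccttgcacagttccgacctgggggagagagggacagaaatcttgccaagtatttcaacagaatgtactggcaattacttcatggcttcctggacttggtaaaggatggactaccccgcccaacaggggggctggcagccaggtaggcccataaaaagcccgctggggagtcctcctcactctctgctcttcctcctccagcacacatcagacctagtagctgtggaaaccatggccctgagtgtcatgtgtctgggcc
Mt2, chr8:94172368-94172667, plus strand: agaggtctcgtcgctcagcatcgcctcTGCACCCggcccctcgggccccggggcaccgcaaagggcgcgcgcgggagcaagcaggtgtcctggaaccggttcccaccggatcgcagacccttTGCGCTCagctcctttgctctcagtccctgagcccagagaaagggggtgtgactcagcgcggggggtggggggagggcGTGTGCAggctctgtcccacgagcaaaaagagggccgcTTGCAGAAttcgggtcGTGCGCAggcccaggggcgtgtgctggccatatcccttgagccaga
Cp, chr3:19956999-19957298, plus strand: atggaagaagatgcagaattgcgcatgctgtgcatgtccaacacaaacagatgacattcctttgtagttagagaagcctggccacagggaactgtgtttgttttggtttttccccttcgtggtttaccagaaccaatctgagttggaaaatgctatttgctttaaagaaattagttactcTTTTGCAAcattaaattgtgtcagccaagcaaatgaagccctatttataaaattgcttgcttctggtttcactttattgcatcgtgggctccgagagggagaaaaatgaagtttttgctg
Saa3, chr7:46715627-46715926, minus strand: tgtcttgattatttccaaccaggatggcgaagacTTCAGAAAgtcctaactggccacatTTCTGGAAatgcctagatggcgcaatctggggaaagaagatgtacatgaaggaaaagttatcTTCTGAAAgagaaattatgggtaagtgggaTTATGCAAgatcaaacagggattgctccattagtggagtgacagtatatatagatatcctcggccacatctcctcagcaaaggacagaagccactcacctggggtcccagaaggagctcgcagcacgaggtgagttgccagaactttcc

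The Mt2 window was the only one of the 5 with metal response cores. It held 4 of them, starting 223, 128 and 50 bases before the start site and at base 5 after it. At least 1 core was found in 25.7% of all 32851 windows, both forms in 2.27%, and 4 or more in 0.517%. TTNNGNAA was present in all 5 windows of the 4 genes, beside 40.7% of all windows. Saa3 held 4 such matches, at 216, 191, 129 and 99 bases before the start site, and 0.852% of all windows held 4 or more. Lcn2, Mt2 and each Cp window held 1. No match was found in these windows to the NF-kB consensus, to TTCNNNGAA, a STAT sequence, to the glucocorticoid response element or to ACGTG, the hypoxia response core, which 8.46%, 8.30%, 0.475% and 19.6% of all windows held. TATAAA was found in the downstream Cp window, 25 bases before the start, and in 13.6% of all windows. A match is a description of these letters and not of a bound site.

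**Figure D1:**
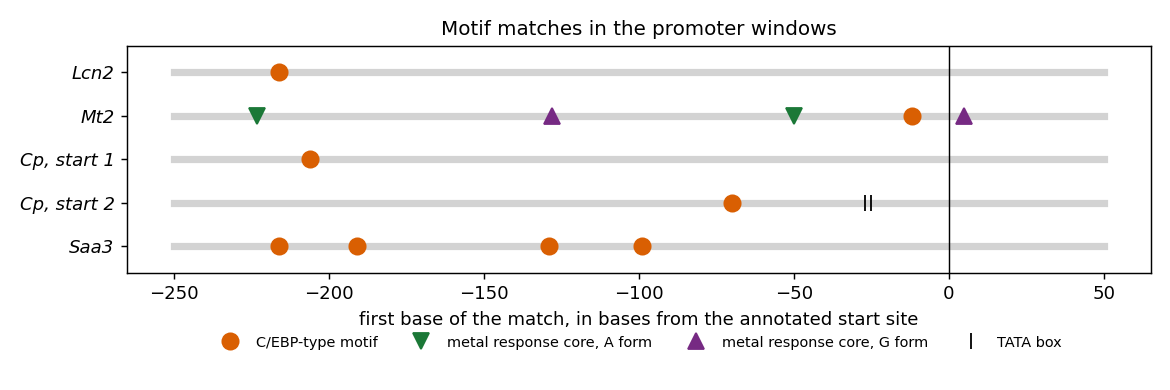
Positions of motif matches in the 5 promoter windows of the 4 genes, in bases from the annotated start site (vertical line). Grey bars are the windows and symbols the first base of each match. The Mt2 window holds 4 metal response cores and the Saa3 window 4 matches to the C/EBP-type sequence TTNNGNAA.

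The deposited signs of the members' spots can be read without turning any array, but the members were chosen by their turned ratios. Opposite signs on the 2 arrays thus follow from that choice and do not show the direction. At 4 h, all 10 spots had a positive deposited ratio on the array with LPS RNA in Cy5 and a negative one on the array with LPS RNA in Cy3. At 24 h this held for 9 of 10 spots, and the exception was a Saa3 spot. The turned arrays of a time correlated weakly over all genes, at 0.12 at 4 h and 0.12 at 24 h. Calls of single genes carry this limit. Over all spots with neither ratio at exactly 1, 51.4% at 4 h and 53.1% at 24 h had opposite signs on the 2 arrays. Among spots at least 2-fold from 1 on both arrays these shares were 63.0% of 1981 and 62.1% of 3893. None of the members' spots had a ratio of exactly 1, where 10.2% to 13.4% of all spots on an array did. Genes chosen by high ratios would seldom have such a spot.

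Lcn2 had the highest ratios of the 4 genes at 24 h. On the 4 h array with LPS in Cy5 its 2 spots stood at 4.99 and 5.17, and on the 4 h array with LPS in Cy3 at 4.05 and 3.59. On the 24 h arrays they stood at 5.06 and 5.71 with LPS in Cy5 and at 5.19 and 4.79 with LPS in Cy3. LPS thus exceeded saline in all 8 values, by between 12.1-fold and 52.4-fold, and the values of the times overlapped. Averaged over spots and centred on the array median, Lcn2 was at 4.45 ± 0.90 at 4 h and 5.17 ± 0.34 at 24 h, which is 21.9-fold and 36.0-fold. By these means it ranked 3 of 11138 genes at 4 h and 2 at 24 h. On single arrays, with LPS in Cy5 and then in Cy3, it ranked lower, at 54 and 16 at 4 h and 5 and 28 at 24 h. The ranks of the means rest on the direction: with the sign not turned they were 1133 and 3498, at means of 0.64 and 0.24. If the turned ratios were inverted, Lcn2 would rank 3 and 2 from the lowest.

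Mt2 was of similar size but uneven between the 4 h arrays. Its 2 spots stood at 5.90 and 5.53 with LPS in Cy5 at 4 h and at 2.51 and 2.85 with LPS in Cy3. At 24 h they stood at 3.34 and 3.82 with LPS in Cy5 and at 4.04 and 3.54 with LPS in Cy3. Duplicate spots within an array thus lay close together, and at 4 h the 2 arrays lay far apart. The mean was 4.20 ± 2.16 at 4 h and 3.66 ± 0.09 at 24 h, or 18.4-fold and 12.7-fold. At 4 h only 4.37% of all genes had a larger SD of the arrays than Mt2, and at 24 h 90.9% did. Whether this oligonucleotide tells Mt2 from the closely similar Mt1 was not tested, since no probe sequence was used here. Mt1 was not among the measured genes.

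Cp had smaller ratios with close duplicate spots. They stood at 2.170 and 2.173 with LPS in Cy5 at 4 h and at 1.42 and 1.53 with LPS in Cy3. At 24 h they stood at 2.16 and 2.32 with LPS in Cy5 and at 3.40 and 2.99 with LPS in Cy3. The lowest of the 8 values was 2.67-fold and the highest 10.5-fold. The mean was 1.83 ± 0.50 at 4 h, or 3.55-fold, and 2.70 ± 0.61 at 24 h, or 6.48-fold, which ranked 246 and 53 among all genes. On single arrays, with LPS in Cy5 and then in Cy3, Cp ranked 431 and 402 at 4 h and 184 and 174 at 24 h. With the sign not turned Cp was at 0.36 and -0.43 and ranked 2303 and 8012, and with the turned ratios inverted it would rank 246 and 53 from the lowest.

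Saa3 was the only member with 2 oligonucleotides, one annotated to a RefSeq transcript and one to another GenBank record, and these gave different pictures. The spots of the GenBank oligonucleotide stood at 1.45 and 1.46 with LPS in Cy5 and at 1.66 and 1.58 with LPS in Cy3 at 4 h. At 24 h they stood at 3.94 and 4.43 and at 3.70 and 3.62 in the same order. All 4 values of 24 h lay above all 4 values of 4 h, and its mean went from 1.54 ± 0.11 to 3.90 ± 0.43. The spots of the RefSeq oligonucleotide stood at 0.81 and 0.15 with LPS in Cy5 and at 3.69 and 3.49 with LPS in Cy3 at 4 h. At 24 h they stood at 2.00 and 1.59 with LPS in Cy5 and at 0.74 and -1.05 with LPS in Cy3. This last value was the only one of the members' 40 spot values below 0. The values of 4 h and 24 h overlapped, at means of 2.04 ± 2.19 and 0.80 ± 1.44. Averaged over both oligonucleotides, Saa3 was at 1.79 ± 1.15 at 4 h and 2.35 ± 0.94 at 24 h, or 3.47-fold and 5.10-fold, so the gene mean hides this disagreement. Which of the oligonucleotides follows Saa3 mRNA was not tested.

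**Figure D2:**
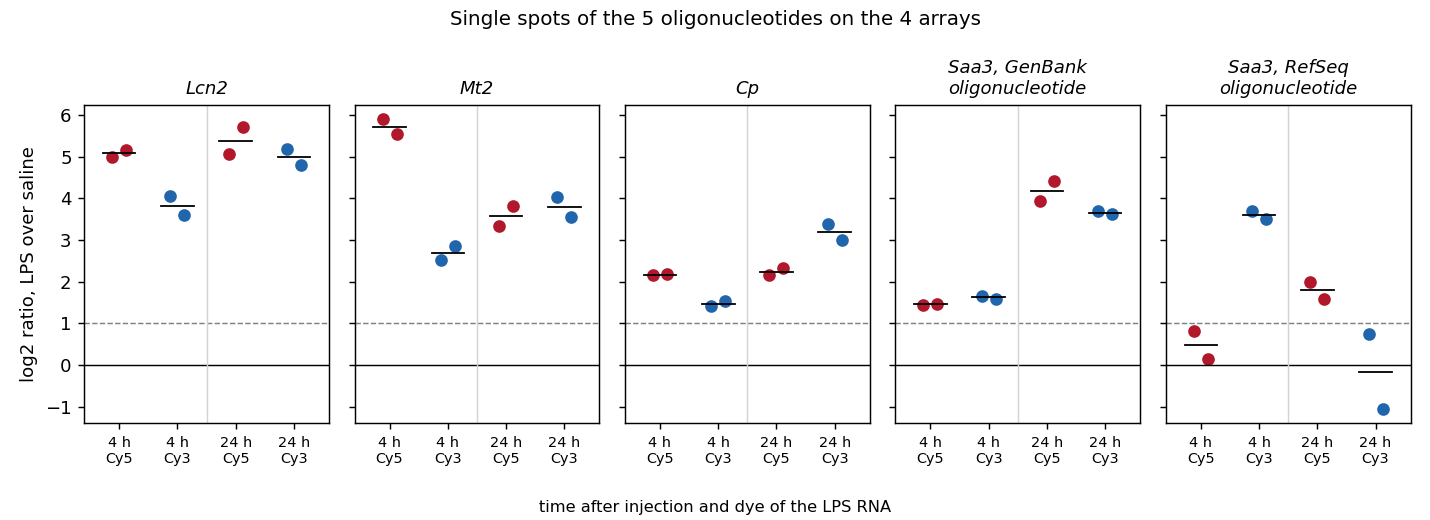
Log2 ratio of LPS over saline in every spot of the 5 oligonucleotides, by time and by the dye of the LPS RNA (red Cy5, blue Cy3). Points are single spots, as deposited with the sign of the Cy3 arrays turned, black bars their mean, and the dashed line marks 2-fold. Lcn2, Mt2 and Cp and the GenBank oligonucleotide of Saa3 lie above the dashed line in every spot, and the RefSeq oligonucleotide of Saa3 does not.

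Duplicate spots give a measure of error within an array. Over the 5 oligonucleotides and 4 arrays, the gap between duplicate spots had a median of 0.38 and ranged from 0.0032 for Cp to 1.79 for the RefSeq oligonucleotide of Saa3 on the 24 h array with LPS in Cy3. Over all oligonucleotides the median gap was between 0.28 and 0.52, depending on the array, and 15 of the 20 gaps of the members lay under the median of their array. The SD between arrays was larger at 4 h, with a median of 1.03 over the 4 genes, than over all genes, at 0.40. At 24 h it was 0.48 over the 4 genes and 0.60 over all genes.

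A gene was called higher or lower where its mean lay at least 2-fold from saline on both arrays of a time, on the same side. At 4 h, 3 of the 4 genes were called higher, Lcn2, Mt2 and Cp, where 2.25% of all genes were. Saa3 missed the call at 4 h with array values of 0.98 and 2.61. At 24 h all 4 were called higher, where 3.48% of all genes were. With every spot of a gene required to be 2-fold on both arrays, Lcn2, Mt2 and Cp were called at both times and Saa3 at neither, beside 1.25% of all genes at 4 h and 1.92% at 24 h. Of the 10 spots, 8 were at least 2-fold higher on the 4 h array with LPS in Cy5, where 14.3% of all spots were, and 10 on that with LPS in Cy3, where 9.32% were. At 24 h it was 10 spots with LPS in Cy5, beside 15% of all spots, and 8 with LPS in Cy3, beside 16%. These shares are given for scale only, since the genes were chosen by these ratios.

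The times were compared as 24 h minus 4 h, array by array. The difference was 0.71 for Lcn2, 0.87 for Cp, 0.56 for Saa3 and -0.54 for Mt2. Cp was the 1 member whose arrays did not overlap between the times, with both higher at 24 h, as in 17.9% of all genes, and 19.6% of all genes were lower at 24 h in this way. Between arrays of the same dye, Lcn2 differed by 0.32 with LPS in Cy5 and by 1.11 with LPS in Cy3, and Cp by 0.08 and 1.66. Mt2 differed by -2.12 with LPS in Cy5 and by 1.05 with LPS in Cy3, so the dyes gave opposite orders. Saa3 differed by 2.74 and 1.97 with its GenBank oligonucleotide and by 1.33 and -3.81 with its RefSeq oligonucleotide.

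The order of the times depended on how the arrays were scaled for 3 of the 4 genes. The spread of all genes, as the median absolute deviation, was 0.42 and 0.32 on the arrays of 4 h and 0.60 and 0.59 on those of 24 h. With the arrays scaled to one spread, the difference turned to -1.58 for Lcn2, -0.18 for Cp and -0.61 for Saa3, and became -2.28 for Mt2. Lcn2 then stood at 5.69 and 5.57 at 4 h and at 4.20 and 3.90 at 24 h, so that its arrays no longer overlapped and 4 h was the higher time. Mt2 was separated in the same direction, at 6.40 and 3.90 against 2.80 and 2.94. The GenBank oligonucleotide of Saa3 kept its order, at a difference of 1.05, with both arrays of 24 h above those of 4 h. Quantile normalization, which gives all arrays the same distribution of values, kept the sign of each difference. It gave 0.75 for Lcn2, 0.75 for Cp, 0.23 for Saa3 and -0.18 for Mt2. Whether the wider spread at 24 h is technical was not tested.

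**Figure D3:**
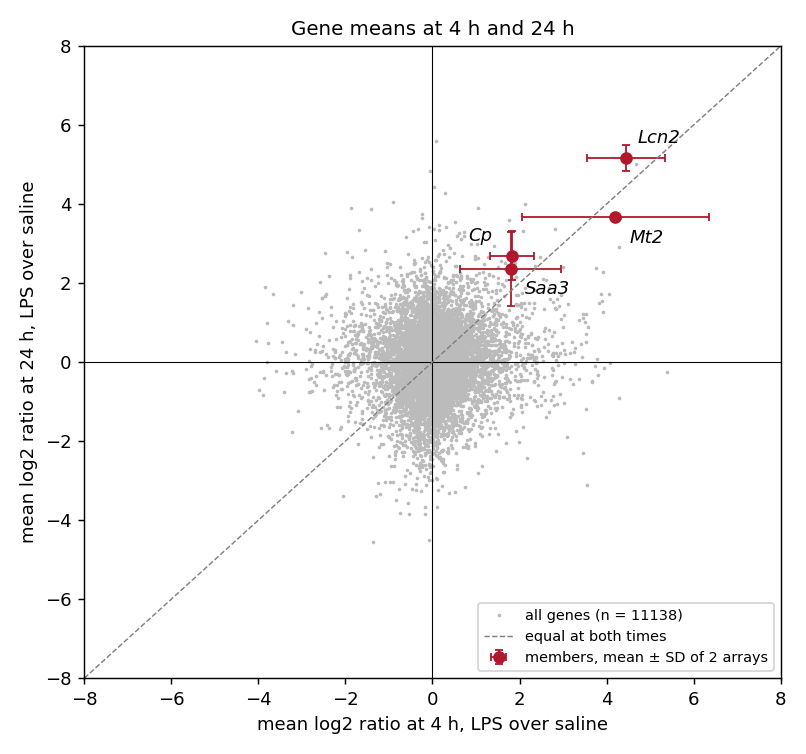
Mean log2 ratio of LPS over saline at 4 h (x axis) and 24 h (y axis) for all 11138 genes (grey) and the 4 members (red, with the SD of 2 arrays), before any scaling of arrays. Lcn2 and Mt2 lie far out on both axes, at 4.45 and 4.20 at 4 h and at 5.17 and 3.66 at 24 h, and Cp and Saa3 lie together at 1.83 and 1.79 at 4 h.

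Genes with a similar pattern were sought by the Euclidean distance over the 4 centred array values, with the 3 nearest genes taken for each member. Nearest to Lcn2 was the guanylate-binding GTPase Gbp2, at a distance of 0.46, where the median distance of all genes was 9.81. Ifi47, an interferon-induced GTPase, followed at 2.25 and Mt2 at 2.53. Nearest to Mt2 were Ifi47 at 1.69, Gbp8 at 2.50 and Lcn2 at 2.53, so Lcn2 and Mt2 were each among the other's nearest genes. Nearest to Cp were the sulfotransferase Sult1a1 at 0.68, the ribosomal protein gene Rps7 at 0.88 and Carhsp1 at 0.97. Nearest to Saa3 were the interferon regulatory factor Irf7 at 1.13 and Id3, an inhibitor of DNA binding by bHLH factors, at 1.25. Nampt, an enzyme of NAD synthesis, followed at 1.26. These genes are near the mean of 2 Saa3 oligonucleotides that disagreed, and no distance was taken for either oligonucleotide alone. The median distance of all genes was 8.30 from Mt2, 4.90 from Cp and 4.71 from Saa3. The distance rests on 4 arrays and gives genes of like size and order only. It uses the values by which the members were chosen, so nothing is read from the nearness of Lcn2 and Mt2.

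The relatives of the members on the array did not show ratios of this size. The members were chosen by their high ratios on these same arrays, so nothing is read from this contrast. Among the serum amyloid genes, Saa1 stood at -0.14 at 4 h and -0.24 at 24 h, Saa2 at 0.39 and -0.53 and Saa4 at -0.04 and -0.38. The arrays of Saa4 lay on both sides of 0 at each time. The brain and epithelial metallothioneins Mt3 and Mt4 stood at 0.07 and 0.06 at 4 h and at -0.92 and -0.72 at 24 h. Both had arrays of both signs at 24 h, and Mt4 also at 4 h. The ceruloplasmin homologue Heph (hephaestin), a membrane-bound ferroxidase, stood at -0.30 and -0.08. Its value on the 24 h array with LPS in Cy3 was that of a ratio of exactly 1. None of these 6 genes was called at either time. They were named for their families, outside the rule for named genes.

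Lists of related genes, drawn up with earlier results of these data known, place the members among their pathways. In the acute-phase list, 28 measured genes were not members. At 4 h, 1 of them was called higher, Lbp, the plasma protein that hands LPS to its receptor, at 1.64 ± 0.10, and 1 lower, Ahsg (fetuin-A), a liver glycoprotein that falls in the acute phase, at -2.47 ± 0.98. For lower calls the share of all genes was 0.997% at 4 h and 3.52% at 24 h. At 24 h, 3 of the 28 were called higher, Lbp at 1.91 ± 0.92, Ahsg at 2.76 ± 0.85 and the complement inhibitor Serping1 at 2.50 ± 0.51, and 0 lower. The median of the 28 was -0.04 at 4 h and -0.07 at 24 h, beside -0.02 for all genes at both times.

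In the iron and siderophore list, none of 30 genes other than Lcn2 and Cp was called higher at either time. At 24 h 3 were called lower. Slc22a17, a receptor for Lcn2, went from 0.03 ± 0.25 at 4 h to -1.55 ± 0.61 at 24 h. The haem and folate transporter Slc46a1 was at -1.56 ± 0.41 and the metalloreductase family member Steap1 at -1.86 ± 0.25. Slc22a17 and Steap1 were not 2-fold in every spot. The median of the 30 was 0.02 at 4 h and -0.13 at 24 h.

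In the zinc and copper list, none of 24 genes other than Mt2 and Cp was called at 4 h. At 24 h 4 were called higher and 1 lower. Cox17, which delivers copper to cytochrome c oxidase, stood at 2.20 ± 0.08 and the zinc transporter Slc39a7 at 1.53 ± 0.67. S100a8 and S100a9, which form the metal-binding complex calprotectin, stood at 2.59 ± 1.17 and 1.55 ± 0.08. The zinc transporter Slc30a3 was lower at -1.73 ± 0.18, with spots that were not all 2-fold. Mtf1, the zinc sensor that activates metallothionein genes, was not called, at -0.29 ± 0.61 and -0.53 ± 2.68. The median of the 24 was -0.10 at 4 h and -0.05 at 24 h.

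Inducers and regulators of acute-phase genes held 5 higher and 2 lower calls of 38 at 4 h, and 3 higher and 0 lower at 24 h. At 4 h, Hif1a, which encodes the oxygen-regulated part of a hypoxia-responsive transcription factor, was at 3.75 ± 0.03, and the C/EBP factors Cebpd and Cebpb at 3.51 ± 0.07 and 1.63 ± 0.72. Osmr, the receptor of oncostatin M, was at 2.02 ± 0.52 and the NF-kB subunit Rela at 1.57 ± 0.28. The general factor Sp1 at -1.36 ± 0.35 and the glucocorticoid-induced Tsc22d3 at -1.69 ± 0.57 were lower. At 24 h, Hif1a at 2.37 ± 0.10, Osmr at 1.47 ± 0.23 and Tsc22d3 at 2.28 ± 0.05 were called higher. Cebpd at 1.01 ± 1.16, Cebpb at 0.89 ± 0.49 and Rela at -0.22 ± 0.14 were not called then. Cebpb at 4 h and Osmr at 24 h were called by their means but were not 2-fold in every spot. The median of the list was 0.30 at 4 h and 0.04 at 24 h.

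Of 10 receptors in the list of receptors for these proteins, 1 was called higher at 4 h and 3 higher and 1 lower at 24 h. Tlr2, a receptor of bacterial lipoproteins that also senses serum amyloid A, stood at 3.86 ± 0.21 at 4 h and 1.73 ± 0.78 at 24 h. The formyl peptide receptor Fpr2, which also binds serum amyloid A, was at 0.46 ± 0.08 and 1.20 ± 0.08, and the scavenger receptor Cd36 at 0.14 ± 0.01 and 3.46 ± 1.15. The lower receptor at 24 h was Slc22a17, and neither it nor Fpr2 was 2-fold in every spot.

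**Figure D4:**
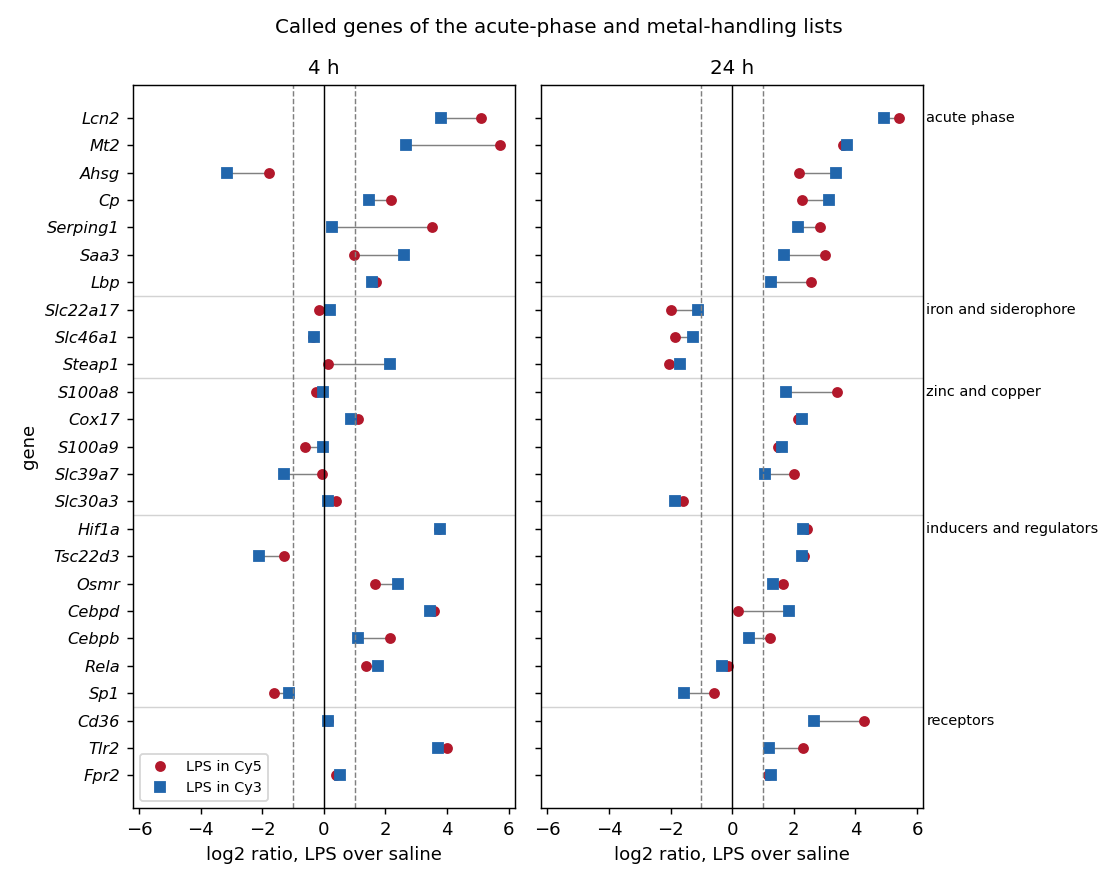
Log2 ratio of LPS over saline on each array (red circles LPS in Cy5, blue squares LPS in Cy3) at 4 h (left) and 24 h (right) for every gene of the 5 pathway lists that was called at either time. Dashed lines mark 2-fold in each direction, and grey lines join the 2 arrays of a time. Lcn2, Mt2 and Cp lie beyond 2-fold at both times, while S100a8, S100a9 and Cd36 do so at 24 h and not at 4 h.

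Markers of other cells were set beside the members, since Lcn2 is also stored in neutrophil granules and most acute-phase proteins are made by the liver. Over all genes, 2.25% were called higher and 0.997% lower at 4 h, and 3.48% and 3.52% at 24 h. Few or no calls are thus likely in lists this short. At 4 h, 0 of 16 neutrophil markers were called, with means from -0.88 to 0.46 and a median of -0.19. At 24 h 3 were called higher, S100a8, S100a9 and Fpr2, and 1 lower, Ngp at -1.62 ± 0.82, with a range of -1.62 to 2.59 and a median of -0.15. Ltf (lactoferrin), which shares the granules of Lcn2 and is named outside the rule, stood at 0.45 at 4 h and -1.03 at 24 h. Of 7 liver markers, 2 were called lower at 4 h, Ahsg and Apoa2 at -1.14 ± 0.18, and Ahsg alone was called higher at 24 h, while Alb (albumin) was at -0.07 and 0.39. No macrophage marker of 14 was called at either time. Of 14 cardiomyocyte markers, Ryr2 was called at 24 h, lower at -1.40 ± 0.11, and of 8 fibroblast markers Mgp was called at 24 h, higher at 1.80 ± 0.91. Of 13 endothelial markers, Cldn5 was higher at 1.29 ± 0.10 and Kdr and Eng lower at -1.89 ± 0.75 and -1.87 ± 0.84 at 4 h, and Kdr at 2.21 ± 0.48 and Eng at 3.91 ± 0.85 were higher at 24 h. Kdr at 4 h, Apoa2, Ngp, Ryr2 and Mgp were called by their means but were not 2-fold in every spot. Levels that could be summed were not in the table, and the part of other cells in the members' ratios was not tested.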

How the data were processed

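The authors deposited log2 ratios of 32448 spots on each of 4 arrays of long oligonucleotides, each array with a median within 1e-06 of 0. Amplified RNA was labelled with Cy3 and Cy5, per the labels. The scanner, background correction, dye normalization, spot filters and genome build were not given in the sources used here. Intensities were not in the table, so dim spots could not be set apart; precision is limited by how many arrays there are.

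The table was read as Cy5 over Cy3, and arrays with LPS RNA in Cy3 had their sign turned. Means were taken over the 2 adjacent spots of an oligonucleotide and then over a gene's oligonucleotides, and the gene median of each array was subtracted (Python 3.11.15, pandas 2.3.3, numpy 2.4.6). Symbols came from the platform annotation: 1 symbol for 24344 spots, several for 98 and no entry for 8006. The RefSeq table of GRCm38.p6 held the gene identifier of 24076 spots and altered 0 symbols. With 1 replicate per time no test was made, and calls follow the 2-fold rule. The code of the call rule was checked on shuffled array values with set amounts added to some genes. No error rate of the calls was taken from that check.

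The members, lists, motifs and the rule for named genes were chosen with earlier results of these data known. The rule took the members, the called genes of the lists and the 3 genes nearest each member. Alternatives were the centring, array scaling, quantile normalization, spots at a ratio of exactly 1, the spot rule, the threshold, single oligonucleotides, each array alone and the sign left unturned. The values of each Saa3 oligonucleotide and the ranks with the sign unturned or inverted were added after the data were seen.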

Additional observations from a re-analysis of the deposited data

Results flagged for a closer look

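Of the 41 genes named by the rule, 11 had both arrays of one time above 0 and both arrays of the other below it. Over all genes the share was 12.3%. Most named genes were called, so both their arrays already lay on one side at a time, and the shares cannot be compared. No member was among the 11. The difference between the times was not tested for any of them. As 24 h minus 4 h on the log2 scale, it was 5.77 for Eng, 5.23 for Ahsg, 4.10 for Kdr, 3.97 for Tsc22d3, 2.71 for S100a8, 2.20 for Slc39a7 and 1.87 for S100a9, which stood below 0 at 4 h and above it at 24 h. It was -3.01 for Steap1, -2.00 for Slc30a3, -1.96 for Cldn5 and -1.79 for Rela, which stood above 0 at 4 h and below it at 24 h. Only Eng, Ahsg, Kdr and Tsc22d3 were called at both times. At 4 h, S100a8 and S100a9 stood at -0.018 and -0.035 with LPS in Cy3, and Slc39a7 at -0.045 with LPS in Cy5, all close to 0. The genes that fell also had arrays near 0. At 4 h, Steap1 stood at 0.139 with LPS in Cy5 and Slc30a3 at 0.141 with LPS in Cy3. At 24 h with LPS in Cy5, Cldn5 stood at -0.057 and Rela at -0.127.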

How the results depend on the processing

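The members' ratios at each time stayed above 0 under all 7 settings other than the unturned sign, between 0.98 and 5.73. Lcn2 and Mt2 were called at both times in all of these, and Cp lost its call only at 4 h with a threshold of 1.5 log2 units, where 2 members were called. Saa3 was called at 4 h with arrays scaled to one spread, at 1.5-fold, on the array with LPS in Cy3 alone and by its GenBank oligonucleotide alone, while its RefSeq oligonucleotide alone was called at neither time. With the sign not turned, 0 members were called at 4 h and 0 at 24 h, and the means became 0.64 (Lcn2), 1.52 (Mt2), 0.36 (Cp) and -0.82 (Saa3) at 4 h, and 0.24, -0.062, -0.43 and 0.66 at 24 h. The time differences of Lcn2 and Cp were then -0.40 and -0.79. With arrays scaled to one spread, Lcn2 was at 5.63 at 4 h and 4.05 at 24 h, a difference of -1.58, Mt2 was at 2.87 at 24 h, and Cp differed by -0.18 between the times. Mt2 at 24 h was at 3.78 after quantile normalization and at 3.44 with the spot nearest 0. Saa3 at 24 h was at 3.90 by its GenBank and 0.80 by its RefSeq oligonucleotide. Its time difference was 2.35 and -1.24, and -2.27 by the latter with scaled arrays.

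Of the 11138 genes, the calls numbered 362 at 4 h (69.3% of them higher) and 780 at 24 h (49.7%). Scaling gave 557 (62.3% higher) and 424, quantile normalization 561 at 4 h (58.5% higher), every spot 176 and 401, the unturned sign 158 (55.1% higher) and 411 (46.2%), 1.5 log2 units 146 and 270, and 1.5-fold 941 and 1808. A single array gave 1414 to 2317 at 4 h and 3239 to 3408 at 24 h. No paired analysis was possible because each time had 1 replicate.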
